A study of Homo sapiens with 4 samples.

Results

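The lysosomal enzymes that take apart glycosaminoglycans were followed in a human renal carcinoma line after knockdown of the transcription factor TFE3. The members are 9 genes picked by symbol: SGSH, NAGLU, HGSNAT, IDS, IDUA, GUSB, GALNS and ARSB, whose loss causes a mucopolysaccharidosis (a storage disease of undegraded glycosaminoglycans), and the hyaluronidase HYAL2. All 9 were found, each under 1 Ensembl identifier, among the 61533 identifiers of the count table, and all 9 passed the filter on low counts. Caki-1 cells, an established line labelled as renal cell carcinoma and wild type apart from the hairpins, received lentivirus with a control sequence (shControl, 2 libraries) or with short hairpin RNA against TFE3 (shTFE3, 2 libraries). Both arms were split into dishes 24 hours after infection, met puromycin at 1 µg/ml 12 hours later and were collected after 3 days of selection, so every library comes from infected, drug-selected cells. The labels do not say whether 1 or several hairpins were used, nor whether the replicates were separate infections. The p-values therefore measure the spread between these libraries, which may be technical.

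Glycosaminoglycans are long sugar chains, most of them sulfated, that cover cells as part of proteoglycans or, in the case of hyaluronan, stand free in the matrix. Lysosomes break them down, and the members other than HYAL2 work from the free end of a chain in a fixed order. Sulfatases and glycosidases alternate in this order, and each enzyme needs the product of the one before. Heparan sulfate also needs an acetyltransferase, HGSNAT, which acetylates the free amino group that SGSH leaves so that NAGLU can cut the sugar off. TFE3 and its relatives are known to bind CACGTG-type motifs near lysosomal genes and to raise their transcription.

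The libraries held between 17270180 and 17742519 counts, so that 3 counts, the detection floor used here for counting error only, equalled 0.169 to 0.174 CPM (counts scaled to a common library total). TFE3 itself had 131 and 128 CPM in shControl and 70.1 and 66.9 CPM in shTFE3, 52.9% of the control mean, so the knockdown was partial. Its log2 fold change was -0.92 (standard error (SE) 0.062, edgeR adjusted p 5.6e-11). Of 13 renal epithelial markers 10 were tested, and PAX8 (424 to 465 CPM) and CDH16 (19.2 to 22.8 CPM) were present in all 4 libraries, while PAX2 and CA9 were at 0 counts throughout. KRT8 (330 to 369 CPM) and VIM (1040 to 1185 CPM) were high. CDH1 (4.78 to 6.12 CPM) and EPCAM (0.445 to 1.23 CPM) were low, and KRT19 had at most 2 counts. Within that list LHX1 and KRT18 fell in shTFE3 (log2 fold changes -0.80 and -0.28) and CA12 rose (0.28). The 7 leukocyte markers summed to 1.06 to 1.88 CPM and the 4 endothelial ones to 2.81 to 4.06 CPM, nearly all of it PECAM1, with CD3E and CDH5 at 0 counts. The 6 fibroblast markers summed to 19.1 to 19.9 CPM, from PDGFRB (11.3 to 12.9 CPM) and COL1A1 (6.23 to 8.39 CPM), with LUM at 0 counts. The part of these markers in the results below was not tested. Cell cycle genes differed between the arms and between the shTFE3 libraries. Of 12 genes of G2 and mitosis 10 were higher in shTFE3 (edgeR adjusted p under 0.05) and 0 lower, with a median log2 fold change of 0.49. Among all tested genes 10.3% were higher by that measure. The mean log2 CPM of the 12 genes was 5.84 and 5.83 in shControl against 6.13 and 6.42 in shTFE3 replicates 1 and 2. The part of the cell cycle in the results below was not tested.

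Of the 9 enzyme genes 4 fell in shTFE3, 0 rose and 5 did not pass (quasi-likelihood test of edgeR, with p adjusted after Benjamini and Hochberg over 15950 genes and called under 0.05). The 4 were SGSH, NAGLU, HGSNAT and IDS, at 72.6% to 79.3% of their control means. Among all tested genes 12.9% were called lower and 10.3% higher, 23.3% in either direction, against 44.4% of the members called lower. For rises, no member had even an unadjusted p under 0.05 (a count of 0, also 0 by DESeq2 and 0 by limma-voom). The median log2 fold change of the members was -0.30 and their range -0.46 to 0.15, beside a median of 0.002 over all tested genes. In bulk RNA, fewer cells of a kind and less RNA per cell cannot be told apart. The lower CPM values did not overlap the control values in 6 of the 9, the 4 that fell with GUSB and HYAL2, and such a separation was seen in 30.5% of all tested genes. No member had separate arms with the higher values in shTFE3, against 29.8% of all tested genes. The count of members that fell was 3 by DESeq2, which called 3.78% of its 31954 genes lower. That run had no filter on low counts, so its share is not on equal terms with the 12.9% of 15950 genes. In edgeR the count of members that fell was 0 with no filter on low counts, a setting in which 0.876% of 31954 genes were called lower. The median log2 fold change of the members was -0.27 without shTFE3 replicate 1 and -0.32 without shTFE3 replicate 2.

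**Figure D1:**
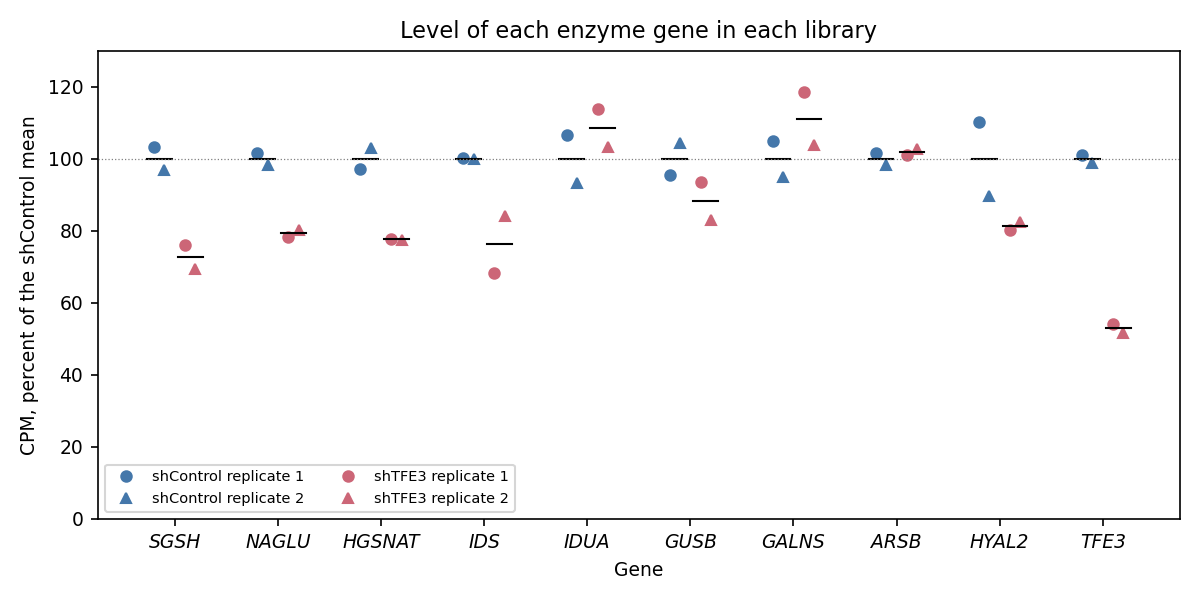
CPM of each of the 9 enzyme genes and of TFE3 in each of the 4 libraries, as a percent of the gene's shControl mean, with black bars for the arm means. SGSH, NAGLU, HGSNAT and IDS lie at 72.6% to 79.3% of control in shTFE3, TFE3 at 52.9%, and ARSB at 101.8%.

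The 3 members that work on heparan sulfate alone all fell, and the loss of any of them causes Sanfilippo syndrome. This count covers members only, and the heparanase HPSE, listed as a partner, did not pass (log2 fold change -0.09, edgeR adjusted p 0.756). SGSH, the sulfamidase that removes the N-linked sulfate from glucosamine, had 127 and 119 CPM in shControl and 93.5 and 85.5 CPM in shTFE3. Both knockdown libraries lay below both controls, with a gap larger than the distance between replicates. The arm means were 123 ± 5.53 and 89.5 ± 5.70 CPM (SD, n = 2), and the log2 fold change -0.46 (SE 0.064, 95% interval -0.59 to -0.33, edgeR adjusted p 6.56e-06). SGSH is ENSG00000181523 on chromosome 17, 80206716 to 80220923, minus strand (GRCh38). Its 5' end meets that of SLC26A11 on the other strand, an anion transporter gene that shares 8 exon bases with it in the annotation and also fell (from 1021 and 944 counts to 886 and 833, log2 fold change -0.26, edgeR adjusted p 0.00948). The opposite strand also carries CARD14, which shares 153 exon bases with SGSH and did not pass (log2 fold change 0.67, edgeR adjusted p 0.0636).

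HGSNAT, the membrane enzyme that carries acetyl groups across the lysosomal membrane onto heparan sulfate, had 124 and 131 CPM in shControl and 99.0 and 98.7 CPM in shTFE3. The knockdown libraries were almost alike and below both controls. The arm means were 127 ± 5.22 and 98.9 ± 0.25 CPM (SD, n = 2), and the log2 fold change -0.36 (SE 0.061, 95% interval -0.49 to -0.24, edgeR adjusted p 6.8e-05). HGSNAT (ENSG00000165102) lies on chromosome 8, 43140455 to 43202855, plus strand. NAGLU, the glycosidase that removes the acetylated glucosamine, had 55.4 and 53.5 CPM in shControl and 42.7 and 43.7 CPM in shTFE3. These libraries too separated by arm, with 54.5 ± 1.32 against 43.2 ± 0.70 CPM (SD, n = 2) and a log2 fold change of -0.34 (SE 0.072, 95% interval -0.48 to -0.19, edgeR adjusted p 0.00107). NAGLU (ENSG00000108784) lies on chromosome 17, 42536172 to 42544449, plus strand. SGSH and HGSNAT passed with any 1 of the 4 libraries left out, while NAGLU did not pass once either shTFE3 library was left out (edgeR adjusted p 0.0576 without replicate 1, 0.0557 without replicate 2).

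The 3 members that heparan sulfate shares with dermatan or chondroitin sulfate went different ways, with 1 lower and 2 not passing. IDS, the Hunter syndrome sulfatase that takes the 2-sulfate off iduronic acid, was counted 195 and 194 times in the control libraries and 140 and 171 times after knockdown, or 11.4, 11.4, 7.79 and 9.61 CPM. The controls were nearly equal, and both knockdown libraries lay below them, replicate 1 further than replicate 2. The log2 fold change was -0.39 (SE 0.13, 95% interval -0.66 to -0.12, edgeR adjusted p 0.0296). This is the weakest of the 4 calls: the edgeR adjusted p lay between 0.0641 and 0.241 with each of the 4 libraries left out in turn, and DESeq2 gave an adjusted p of 0.269. IDS (ENSG00000010404) lies on chromosome X, 149476990 to 149521096, minus strand. An unnamed protein-coding locus on the same strand shares 1529 exon bases with it, at 11 to 26 counts per library, and the pseudogene IDSP1 held at most 1 count.

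IDUA, the Hurler syndrome iduronidase that acts right after IDS, had 39.9 and 34.9 CPM in shControl and 42.5 and 38.6 CPM in shTFE3. The arms overlapped, and the log2 fold change of 0.12 (SE 0.083) had a 95% interval of -0.05 to 0.29 (edgeR adjusted p 0.334). The interval leaves room for a fall of 0.05, but it does not reach the change of SGSH, NAGLU, HGSNAT or IDS. IDUA (ENSG00000127415, chromosome 4, 986997 to 1004506, plus strand) shares 534 exon bases with SLC26A1, another anion transporter gene on the opposite strand, which fell from 255 and 213 to 189 and 132 counts (log2 fold change -0.61, edgeR adjusted p 0.00205). The strand setting of the counting is not given in the sources used here, so reads of this shared stretch cannot be told apart. GUSB, the beta-glucuronidase lost in Sly syndrome, had 41.6 and 45.5 CPM in shControl and 40.8 and 36.1 CPM in shTFE3. The arms were apart by less than the spread within either of them, and the log2 fold change of -0.18 (SE 0.081, 95% interval -0.35 to -0.01) did not pass, with an edgeR adjusted p of 0.114. GUSB (ENSG00000169919, chromosome 7, 65960684 to 65982314, minus strand) has 19 pseudogenes named after it, whose counts summed to 41.1% to 56.6% of its own, so how shared reads were split could move its level.

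Of the 3 members that act on other chains, 0 passed in either direction (1, HYAL2, was lower at an unadjusted p under 0.05, and DESeq2 and limma-voom called 0). With the replicate number as a block 1 of them, HYAL2, fell (edgeR adjusted p 0.0426). GALNS, the Morquio A sulfatase for keratan and chondroitin 6-sulfates, had 51.7 and 46.8 CPM in shControl and 58.3 and 51.0 CPM in shTFE3. The second knockdown library lay between the controls, and the log2 fold change of 0.15 (SE 0.078, 95% interval -0.01 to 0.31, edgeR adjusted p 0.172) did not pass. ARSB, the Maroteaux-Lamy sulfatase for chondroitin and dermatan 4-sulfates, had 42.1 and 40.7 CPM in shControl and 41.9 and 42.5 CPM in shTFE3. Its log2 fold change was 0.03 (SE 0.075) with a 95% interval of -0.13 to 0.18 (edgeR adjusted p 0.85), the value closest to 0 among the members. HYAL2, a hyaluronidase anchored to membranes by a lipid, was counted 337 and 274 times in the controls and 258 and 263 times after knockdown. The control libraries lay further apart than the nearest libraries of the arms. The log2 fold change was -0.30 (SE 0.11, 95% interval -0.53 to -0.07) and the edgeR adjusted p 0.0516, just past the threshold. It was 0.0106 without shControl replicate 2 and 0.568 without shControl replicate 1. HYAL2 (ENSG00000068001, chromosome 3, 50317790 to 50322906, minus strand) shares 509 exon bases with TUSC2 on the same strand, at 362 to 426 counts (log2 fold change 0.03, edgeR adjusted p 0.863).

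**Figure D2:**
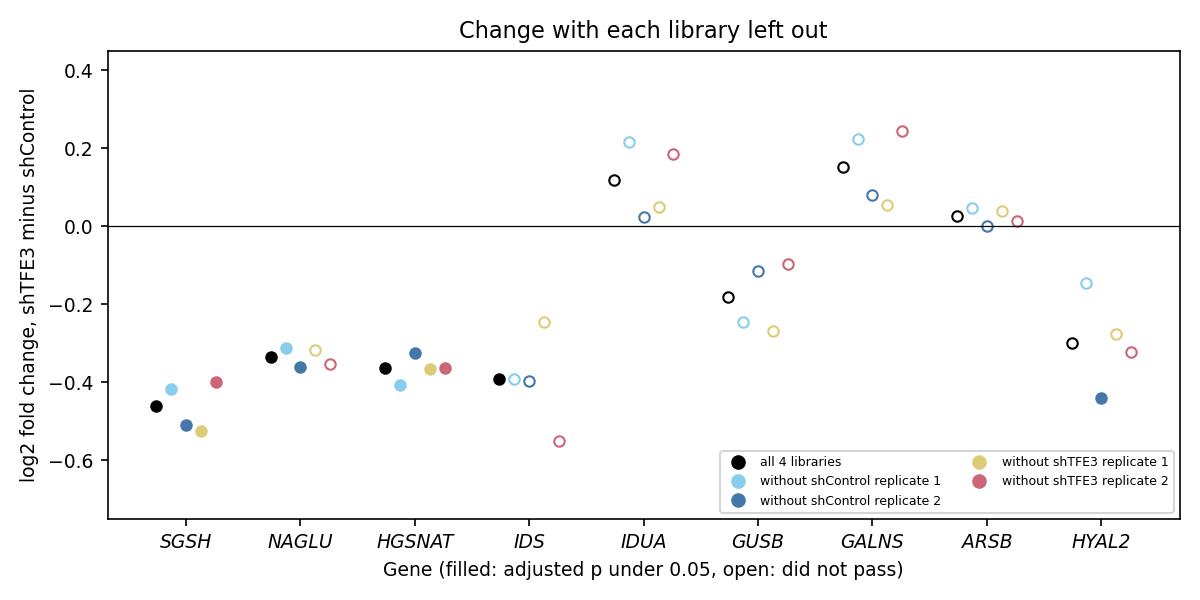
Log2 fold change of each enzyme gene from edgeR with all 4 libraries (black) and with each library left out in turn, filled where the adjusted p is under 0.05. SGSH and HGSNAT stay filled throughout, NAGLU opens at -0.32 and -0.35 without an shTFE3 library, and IDS at -0.25 to -0.55.

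Among the 6 members with a promoter window, GALNS and ARSB, neither of them called, held the motif that TFE3 and its relatives are known to bind. RefSeq promoter windows (GRCh38.p14, 250 bases before to 50 after a gene start) were at hand for 6 of the 9 members, in 8 windows, and not for SGSH, NAGLU and HGSNAT. The only IDS window (chrX:149505257-149505556, minus strand) lies inside the gene, away from its annotated 5' end at 149521096. The annotated 5' end was therefore searched for none of the 4 called members. The motif CACGTG, which reads the same on both strands, stood in windows of 2 of these 6 members and in 7.26% of all 35116 windows. Its extended form TCACGTGA, which contains it, was found for 1 member, GALNS, and in 0.98% of windows, and a longer form, with 10 bases, matched at the same GALNS site and in 0.353%. The sites are shown in 30 bases each on the strand of the gene, because they stand before enzymes that did not pass. Every base of CACGTG and TCACGTGA is in capitals, and the outer bases of the longer form are not. The partner genes with CACGTG, 4 of 12 with a promoter entry, are added for comparison. Of these CTSA and SUMF1 fell, and ARSK and HPSE did not pass (edgeR adjusted p 0.862 and 0.756). TCACGTGA stood in 2 of the 12, CTSA and ARSK. Positions are those of the first base of CACGTG, counted from the gene start. The first GALNS site starts at position -174 (chr16:88857104-88857133, minus strand), inside an untranslated exon of TRAPPC2L, the neighbour on the other strand. The second starts at -32 (chr16:88856962-88856991, minus strand), in an intron of TRAPPC2L and just outside GALNS. The ARSB site starts at -160 (chr5:78986101-78986130, minus strand), in no annotated gene. The CTSA pair starts at -42 and -25 (chr20:45891290-45891319, plus strand), within an untranslated exon annotated for CTSA, and the SUMF1 site starts at -13 (chr3:4467265-4467294, minus strand), across the edge of the annotated gene. The ARSK site starts at -92 (chr5:95554997-95555026, plus strand), just outside TTC37 on the other strand, and the HPSE site at -31 (chr4:83335167-83335196, minus strand), in no annotated gene.
GALNS first site: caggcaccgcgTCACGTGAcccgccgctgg
GALNS second site: cgccccgcgagtCACGTGgccgtccaggcc
ARSB site: taattcaataagCACGTGactaaaggattt
CTSA pair: tgtCACGTGgcgccggagtTCACGTGActc
SUMF1 site: ggagggctcagcCACGTGaccaaccgggtc
ARSK site: ccaggactcatTCACGTGActggaagtggc
HPSE site: gagcgcgcagaaCACGTGcgtcaggaagcc
A match is a description of letters and no evidence of binding, and the windows without one say nothing about the factor. GALNS (ENSG00000141012, chromosome 16, 88813734 to 88856970, minus strand) and TRAPPC2L, a subunit of a vesicle tethering complex, share 27 exon bases and the motif region. TRAPPC2L fell from 828 and 859 counts to 700 and 727 (log2 fold change -0.31, SE 0.074, edgeR adjusted p 0.00292), while GALNS did not pass. ARSB (ENSG00000113273) spans 78777209 to 78986087 on chromosome 5, minus strand. Its second promoter window and those of IDUA, GUSB and HYAL2 held no CACGTG, nor did the IDS window inside the gene.

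Scaled to exon length, SGSH, NAGLU and HGSNAT, which work on heparan sulfate alone, were also the most abundant members in control cells. Per kilobase of annotated exon, SGSH stood at 18.4 ± 0.82 CPM and NAGLU at 18.1 ± 0.44 CPM in shControl (SD, n = 2), which overlapped each other. HGSNAT followed at 14.2 ± 0.58, then GUSB at 10.9 ± 0.70, IDUA at 9.34 ± 0.88, GALNS at 5.86 ± 0.41, ARSB at 4.58 ± 0.11, HYAL2 at 3.94 ± 0.57 and IDS at 1.23 ± 0.003 CPM per kilobase. Apart from SGSH and NAGLU, the 2 control values of each gene lay clear of those of the next, but the nearest values of GUSB and IDUA, and of ARSB and HYAL2, were closer than the controls of IDUA or of HYAL2 were to each other. In shTFE3 the level was 13.3 ± 0.85 for SGSH, 14.4 ± 0.23 for NAGLU and 11.1 ± 0.03 for HGSNAT. That placed HGSNAT near IDUA (10.1 ± 0.69) and GUSB (9.64 ± 0.82). With the length of the longest transcript in place of all exons, HGSNAT came first at 24.3 CPM per kilobase in shControl, before SGSH at 22.2 and NAGLU at 21.4, and IDUA and GUSB were level at 17.1.

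**Figure D3:**
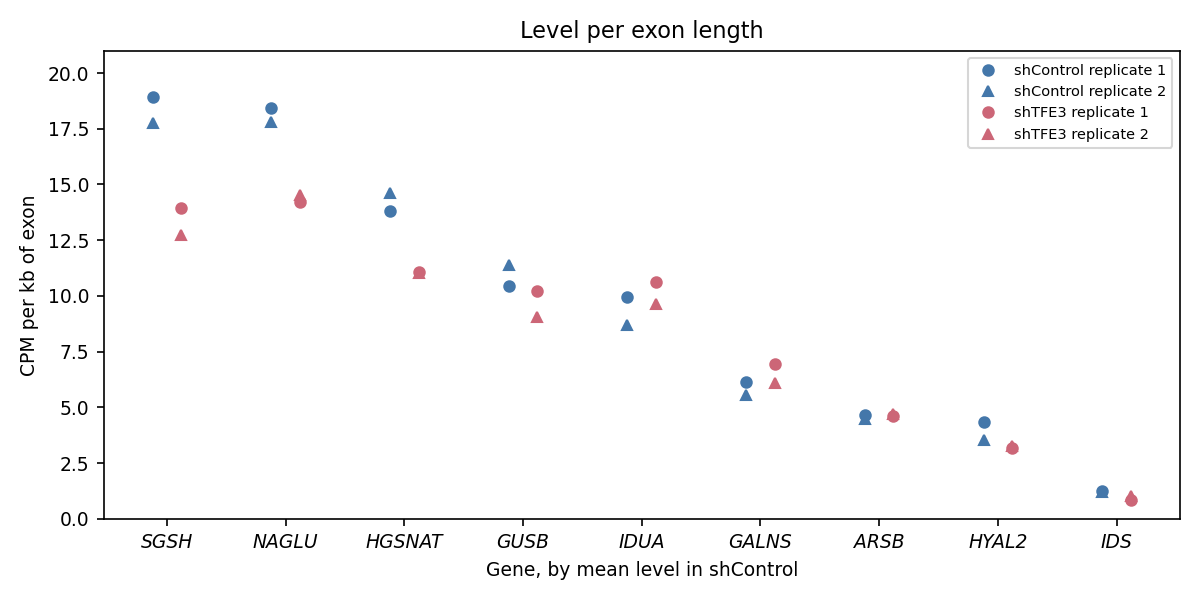
CPM per kilobase of annotated exon of each enzyme gene in the 4 libraries, ordered by the shControl mean. SGSH, NAGLU and HGSNAT stand highest, at 14.2 to 18.4 in shControl and 11.1 to 14.4 in shTFE3, and IDS lowest at 1.23 and 0.94.

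The other enzymes and helpers of the same pathway were listed as partners. Some of them, GLB1 and HYAL1 for example, are also known from mucopolysaccharidoses but are not in the rule. Of 16 listed partners 14 could be tested, and 5 fell (35.7%), 1 rose and 8 did not pass. Among all tested genes 12.9% were called lower and 10.3% higher. Their median log2 fold change was -0.09. HEXA, the alpha subunit of lysosomal hexosaminidase, had 994 and 1046 against 1035 and 982 counts and did not pass (log2 fold change -0.09, 95% interval -0.23 to 0.06). GLB1, the beta-galactosidase of keratan sulfate, fell by 0.31 on the log2 scale, and CTSA, the protease that holds it in a stable complex, by 0.37. SUMF1 showed the deepest fall among the called genes of the pathway, from 379 and 375 counts to 239 and 268 (log2 fold change -0.64, SE 0.10, edgeR adjusted p 3.3e-05). SUMF1 converts a cysteine of every sulfatase to the formylglycine that the enzyme needs, so SGSH, IDS, GALNS and ARSB all depend on it. Its relative SUMF2, which lacks that activity, had a log2 fold change of -0.002 (95% interval -0.12 to 0.12).

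Among the partners for hyaluronan, CEMIP2, a surface protein described as a hyaluronidase, rose from 6445 and 6320 to 7708 and 8368 counts, a log2 fold change of 0.26 (edgeR adjusted p 0.001). HYAL1, the lysosomal hyaluronidase that follows HYAL2, held 18 and 20 counts in the controls, then 16 and 8, too few to place it (log2 fold change -0.73, 95% interval -1.52 to 0.07). HYAL3 stood at 0.44 (edgeR adjusted p 0.125), and the heparanase HPSE, the sulfatases ARSG and ARSK and the hyaluronan-binding CEMIP had adjusted p-values of 0.756 to 0.885. HYAL4 and SPAM1, at most 4 counts in a library, were not tested. Without shTFE3 replicate 2 the counts were 3 down and 0 up, as GLB1, CTSA and CEMIP2 did not pass, and with no filter on low counts they were 1 and 0.

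**Figure D4:**
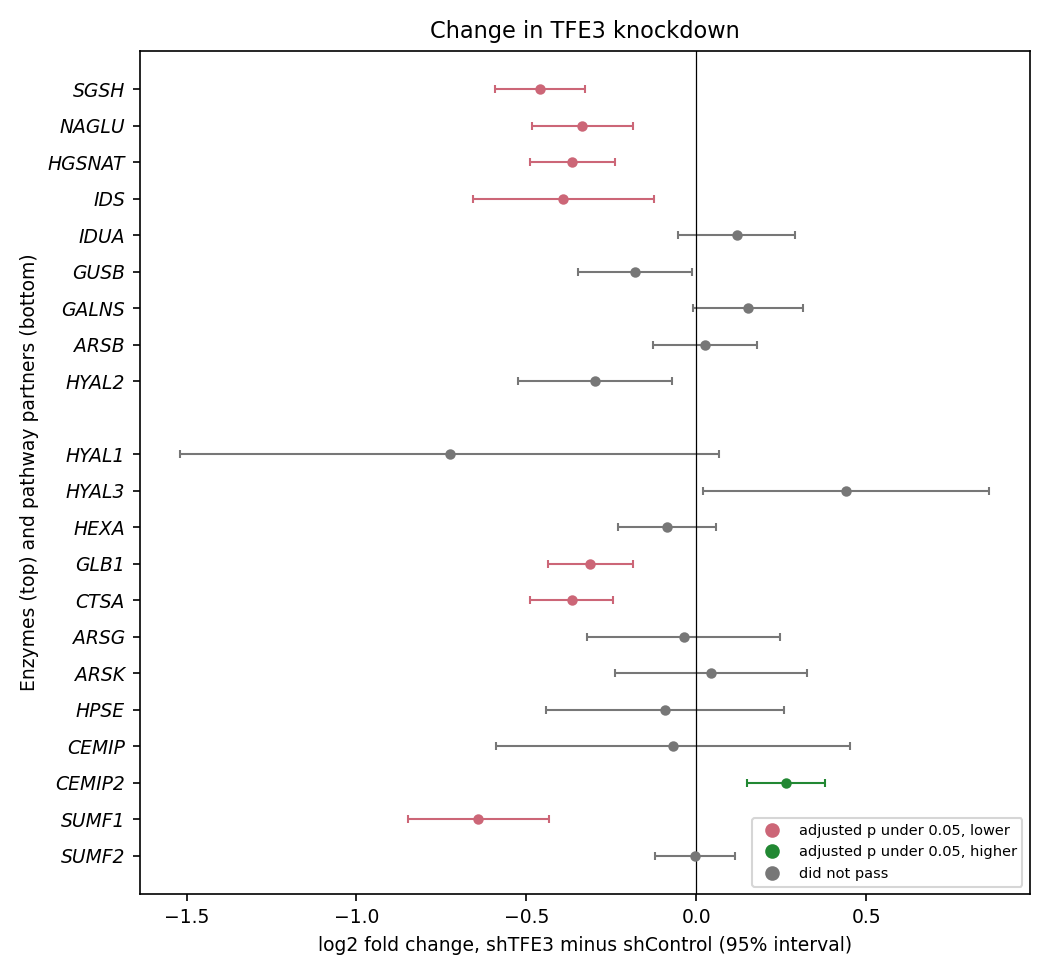
Log2 fold change (shTFE3 minus shControl) with its 95% interval for the 9 enzyme genes, top, and 12 of the tested pathway partners, bottom, coloured by call. SUMF1 at -0.64 and SGSH at -0.46 are the lowest of those shown that fell, and CEMIP2 at 0.26 is the one that rose.

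The steps before and after degradation were described by lists. Many lysosomal enzymes reach their organelle through a mannose 6-phosphate tag. Of 8 listed genes for this tag and for other enzyme transport and sorting, 3 fell (37.5%) and 1 rose. The shares of all tested genes were 12.9% lower and 10.3% higher. GNPTG, a subunit of the enzyme that sets the tag, fell by 0.41 on the log2 scale, the sorting receptor SORT1 by 0.53 and the tag receptor IGF2R by 0.22, while the cargo receptor LMAN1 rose by 0.18. Leaving out shTFE3 replicate 2 gave counts of 0 and 0, leaving out either replicate 1 gave 2 and 0, DESeq2 gave 3 and 0, and testing with no filter on low counts gave 0 and 0. Of 54 genes of glycosaminoglycan synthesis 44 were tested, and 10 fell (22.7%, beside 12.9% of all tested genes) and 2 rose. They were led by EXT1, a polymerase of heparan sulfate, at -0.46, and UGDH, which makes the UDP-glucuronate building block, at -0.35, with CHPF, of chondroitin polymerization, at 0.36 and the nucleotide sugar transporter SLC35D1 at 0.42. Here 6 genes fell with either control left out, 4 with shTFE3 replicate 1 and 2 with shTFE3 replicate 2 left out, and 1 rose with shTFE3 replicate 1 left out. DESeq2 and library totals alone gave 7 lower and 2 higher, the replicate block 8 and 2, and no filter on low counts 0 and 0.

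Among the carriers of the chains, 19 of 28 proteoglycan core proteins and hyaluronan receptors were tested, with 7 down (36.8%) and 5 up. All tested genes had 12.9% lower and 10.3% higher. The smallest p-values belonged to the heparan sulfate proteoglycans COL18A1 (-0.60), SDC2 (-0.58) and AGRN (-0.47), which fell, and to SRGN. SRGN, the core protein of secretory granules, rose by 0.51 on the log2 scale. Among the other called genes, heparan sulfate proteoglycans went both ways, with more of them lower than higher. Without shTFE3 replicate 2 these counts were 4 and 2, and without a low-count filter 2 and 2. The members' 44.4% called lower stood beside 2 of 7 tested genes, 28.6%, of lysosomal sphingolipid degradation, with 0 higher (0 at an unadjusted p under 0.05 in edgeR and 0 by DESeq2), and 3 of 10, 30%, of lysosomal glycoprotein degradation, with 2 higher. Their median log2 fold changes were -0.02 and -0.08, and the differences between these lists were not tested. ASAH1, the acid ceramidase, led the first at -0.55 and NEU1, the sialidase that sits in the complex of CTSA and GLB1, the second at -0.62. With shControl replicate 1 or either shTFE3 library left out, the sphingolipid list had 1 gene lower. The glycoprotein list had 2 lower and 0 higher with either shTFE3 library left out, 1 higher with either control left out, and 3 lower and 0 higher by DESeq2. Without a low-count filter the sphingolipid list had 1 lower and the glycoprotein list 2 lower and 0 higher.

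**Figure D5:**
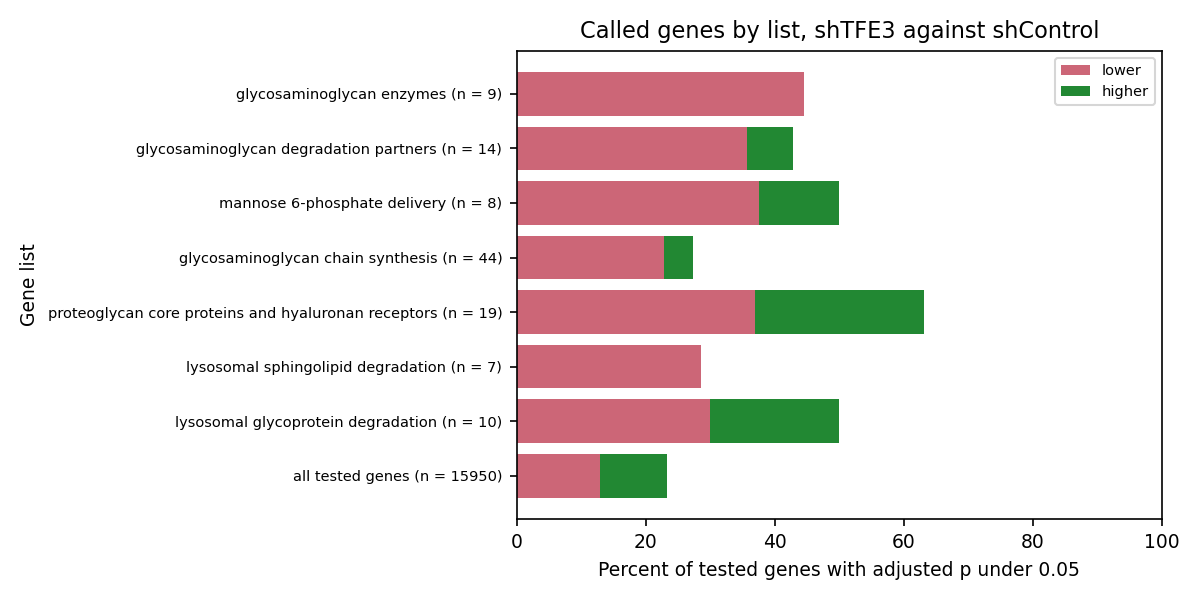
Percent of the tested genes of each list with an edgeR adjusted p under 0.05, lower (red) or higher (green) in shTFE3. The enzyme genes have 44.4% lower and 0 higher, all tested genes 12.9% lower and 10.3% higher.

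None of the 9 enzyme genes was among the 546 genes in the authors' deposited table of changed genes. In that table the smallest absolute log2 fold change was 0.59, larger than the change of any member. TFE3 was listed there with a log2 fold change of -0.92, SUMF1 with -0.64 and COL18A1 with -0.60, as the authors' own values.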

How the data were processed

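Polyadenylated RNA was sequenced as paired 150-base reads. The authors deposited unnormalized counts for each Ensembl identifier. Their tools were DESeq2, featureCounts, STAR and Trim Galore on hg38, with no versions, per the submitters' processing notes. Strand, annotation and handling of shared reads were not given in the sources used here. The authors' deposited table of changed genes holds p-values, a test score, log2 fold changes with their errors, and a mean normalized signal.

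Groups came from the sample titles. A gene name table gave symbols for 61369 identifiers, GENCODE 29 gave 132 more, and 32 had none; coordinates and exon lengths are those of GENCODE 29 (GRCh38), and the counts may rest on another annotation. Counts were tested with edgeR 4.0.16 in R 4.3.3: TMM factors, filterByExpr within arms, the arm as single term, the quasi-likelihood test, and Benjamini-Hochberg adjustment over 15950 genes at 0.05. Standard errors are the absolute log2 fold change over the square root of the test statistic, and 95% intervals use the t quantile at the fitted degrees of freedom (residual 2, prior 22.4). CPM values use the TMM factors; list means of log2 CPM add a prior count of 2 per library. The procedure was tested on simulated counts. Of 50 genes changed 1.25-fold 30 were recovered, and of 50 changed 1.5-fold 45, with 12 false calls among the unchanged genes. Replicates differed by more than sampling noise (chi-square per degree of freedom 2.12 in shControl, 3.61 in shTFE3).

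The text names all members, TFE3, tested pathway partners, up to 4 called genes with the smallest p in each other list (those of the G2 and mitosis list and the cell type markers as lists), and genes that overlap a member; a few genes within the list counts are not reported here. Members, lists and rule were chosen with earlier results of these data known. Alternatives were other normalizations and filters, DESeq2 1.42.0, limma-voom 3.58.1, a replicate term and each library left out. A planned search of the proteins was not run, and chromatin data were not analysed here.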

Additional observations from a re-analysis of the deposited data

How the results depend on the processing

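The log2 fold changes of the 9 enzymes kept their sign in every alternative run, and TFE3 stayed called lower throughout (-0.95 to -0.88). SGSH and HGSNAT lost their call with no filter on low counts alone (edgeR adjusted p 0.0704 and 0.0603), as NAGLU (0.0714) and IDS (0.249) did there. In that setting 0 members and 1 partner fell, 0 partners rose, and 280 genes in all fell and 104 rose, against 2059 and 1650; the cause was not tested. Of 31 called genes outside the 9 that were followed by name or list, 6 were still called there. DESeq2 called 1207 genes lower and 752 higher. With library totals alone the median of the members was -0.26 and the split of all calls turned to 1680 lower and 2119 higher.

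With each library left out, the members called lower numbered 2 to 4 and their median lay between -0.32 and -0.25, the partners numbered 3 to 5 lower and 0 to 1 higher, and all genes 676 to 1507 lower and 367 to 1008 higher. Such fits have 1 residual degree of freedom and assume that the lone sample of an arm varies like the other arm. Their prior degrees of freedom ranged from 3.99 without shTFE3 replicate 2 to infinite without shControl replicate 1, so their counts are not on equal terms.

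The replicate numbers do not mark a known shared batch, and the deviations of same-numbered libraries had a correlation of -0.03. With the replicate block 5 members fell, HYAL2 being added with an edgeR adjusted p of 0.0426, and 5 partners. Partners that did not pass changed sign in 8 cases. SUMF2 was at 0.034 with library totals and at 0.0063 with at least 50 counts in 2 libraries. With each library left out it lay between -0.033 and 0.025, being above 0 without replicate 1 of either arm (0.025 shControl, 0.0070 shTFE3). In the same way ARSG lay between -0.13 and 0.046 (without shTFE3 replicate 2), ARSK between -0.19 (without shControl replicate 1) and 0.32, and, each highest without shTFE3 replicate 1, HPSE between -0.32 and 0.11 and CEMIP between -0.19 and 0.044. IDS and HYAL2, with means of 175 and 283 counts, have the widest intervals of the 9.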
